A study of Homo sapiens with 2 samples.

Results

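The genes of the synaptic vesicle and release machinery were examined for NeuroD1 binding in IMR-32, a MYCN-amplified neuroblastoma line. The group holds 38 protein-coding genes named for their function in vesicles, fusion, the active zone and membrane recycling, out of 20033 protein-coding genes on the RefSeq chromosomes. A gene was counted as having a peak when a called ChIP-seq peak, a stretch with more precipitated DNA than its surroundings, overlapped its RefSeq body or lay up to 3 kb from either end. The series has a NeuroD1 ChIP library and an input library of chromatin that saw no antibody, both from IMR-32 cells labelled wild type. The deposited peaks of the ChIP library were used, and the input was not used here. With 1 ChIP library and no replicate, no test across samples could be made, the total reads are unknown, and intervals cover counting error only. The labels give an antibody to NeuroD1, while the supplementary protocol for ChIP-seq gives one to H3K27Ac, a mark of active chromatin. The list was taken as labelled. The paper reports that NeuroD1 motifs were enriched at its ChIP-seq binding sites. It also reports NeuroD1 enrichment at the USP1 promoter by ChIP-PCR.

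NeuroD1 is a basic helix-loop-helix transcription factor that drives neuronal differentiation and binds E-boxes, short sites of the form CANNTG. Neurotransmitter release is the fusion of a filled vesicle with the plasma membrane: a vesicle SNARE (VAMP) zips up with syntaxin and SNAP25, complexins hold the complex, and synaptotagmins trigger fusion when calcium enters. Synapsins, RAB3 proteins and SV2 proteins sit on the vesicle, active zone scaffolds such as RIMS, bassoon and piccolo place it at the release site, and dynamin, amphiphysin and synaptojanin recover its membrane. Neuroblastoma arises from sympathetic neural crest, whose neurons use this machinery to release noradrenaline.

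Of the 38 genes, 12 had a NeuroD1 peak (31.6%). The exact 95% Clopper-Pearson interval of this share ran from 17.5% to 48.7%, and 21.4% of all protein-coding genes had a peak. Long genes offer more room for a peak, and the 38 genes had a median length of 88.0 kb against 24.1 kb for all protein-coding genes. Among the 200 protein-coding genes nearest in length to each of them, 29.4% had a peak on average, which would correspond to 11.2 of 38 genes. The share of the machinery with a peak was therefore close to that of genes of like length, and no excess is read from it. The 12 genes were the synaptotagmins SYT1, SYT5, SYT7 and SYT11, the SNARE STX1A, the vesicle SNAREs VAMP1 and VAMP2, the complexins CPLX1 and CPLX2, RAB3A, SYN3 and SYNGR1.

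The peaks were unevenly spread over the roles of the genes. A peak was found at 4 of 7 synaptotagmins, at 5 of 8 SNAREs and SNARE regulators and at 3 of 12 vesicle proteins. None was found at the 7 active zone and priming genes or at the 4 endocytosis genes. The like-length share was 29.1% for the synaptotagmins, 24.9% for the SNARE group, 27.6% for the vesicle proteins, 39.1% for the active zone genes and 27.25% for the endocytosis genes. With groups of 4 to 12 genes and 1 library, these differences between roles are a description and were not tested.

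**Figure D1:**
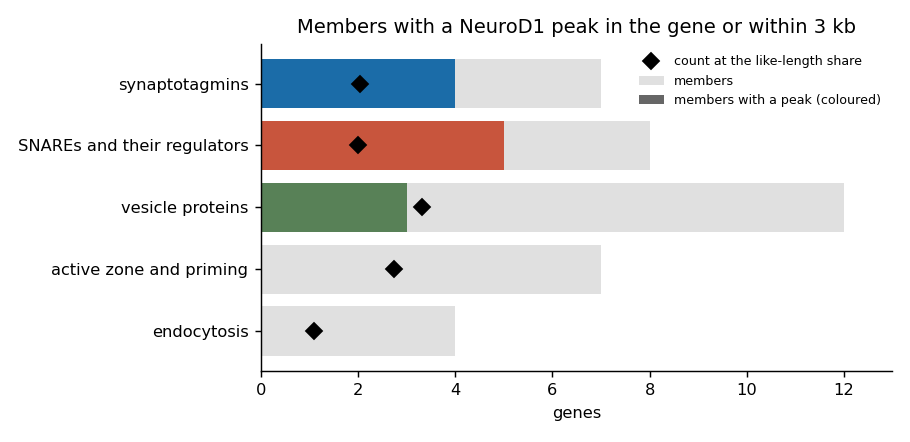
Number of genes in each role group (grey bars), the number with a NeuroD1 peak in the gene or within 3 kb (coloured bars) and the number that the share among genes of like length would give (diamonds). The synaptotagmins (4 of 7) and the SNARE group (5 of 8) lie above the diamonds, the active zone (0 of 7) and endocytosis (0 of 4) groups lie below.

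At the starts of the genes, the sequence under the peaks could be examined. RefSeq promoter sequences, which run from 250 bases before to 50 bases after an annotated start, were matched for 32 of the 38 genes, and a peak lay within 1 kb of a start at 4 of the 32. Among protein-coding genes with an annotated start, 15.6% had a peak within 1 kb of it. The 4 genes were VAMP1, RAB3A, SYT5 and SYT11. Starts of SYT7, SYN3, SNAP25, RIMS2, CPLX1 and SYNGR3 were not used here. Of the 9 genes with both a peak and a listed start, 4 had the peak there, while this held for 70.3% of all such protein-coding genes. The latter were not matched in length, and with 9 genes nothing is read from the difference.

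Below are the 250 bases before the start for the promoters that peaks of the machinery genes covered, read 5′ to 3′ on the strand of the gene from RefSeq on GRCh38.p14, with every CANNTG in capitals. VAMP1 and RAB3A are shown because their peaks lie on their own promoters. TIMP3 and PCGF3-AS1 are shown because a peak counted at SYN3 or CPLX1 covers the start of these other genes.
VAMP1 (chr12:6470678-6470927, minus strand): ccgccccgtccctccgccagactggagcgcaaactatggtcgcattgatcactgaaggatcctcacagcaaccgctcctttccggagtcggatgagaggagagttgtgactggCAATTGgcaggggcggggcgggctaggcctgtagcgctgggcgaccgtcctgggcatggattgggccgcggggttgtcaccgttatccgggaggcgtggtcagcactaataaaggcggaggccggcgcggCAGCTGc
RAB3A (chr19:18204043-18204292, minus strand): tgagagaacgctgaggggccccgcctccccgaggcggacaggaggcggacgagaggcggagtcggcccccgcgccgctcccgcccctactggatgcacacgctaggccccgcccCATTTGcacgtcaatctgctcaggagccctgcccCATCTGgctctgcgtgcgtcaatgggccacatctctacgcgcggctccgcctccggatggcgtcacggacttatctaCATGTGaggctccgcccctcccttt
TIMP3 (chr22:32801455-32801704, plus strand): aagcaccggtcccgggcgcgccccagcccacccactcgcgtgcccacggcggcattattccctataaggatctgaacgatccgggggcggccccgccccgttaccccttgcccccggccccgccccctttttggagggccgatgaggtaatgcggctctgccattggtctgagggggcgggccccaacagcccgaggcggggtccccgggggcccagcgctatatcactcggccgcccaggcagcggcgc
PCGF3-AS1 (chr4:781850-782099, minus strand): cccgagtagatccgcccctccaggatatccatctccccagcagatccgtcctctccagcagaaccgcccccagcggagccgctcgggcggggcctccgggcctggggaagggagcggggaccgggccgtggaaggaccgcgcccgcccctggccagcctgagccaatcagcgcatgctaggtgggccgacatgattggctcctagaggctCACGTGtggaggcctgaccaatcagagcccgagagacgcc

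In VAMP1, 216 of the 250 bases lay in the peak, and the CAATTG at 137 bases before the start had its centre 21.5 bases from the summit. The second E-box of VAMP1, CAGCTG, also lay in the peak, 108.5 bases from the summit. In RAB3A, 161 of the 250 bases lay in the peak, including the CATTTG and the CATCTG, 135.5 and 169.5 bases from the summit, while the CATGTG 25 bases before the start lay outside it. Part of the RAB3A peak, with the summit, lay beyond the printed stretch. The TIMP3 stretch held no CANNTG, and that of PCGF3-AS1 held a single CACGTG whose centre lay 49.5 bases from the summit. All 4 stretches were rich in G and C, from 64.8% in VAMP1 to 72.4% in TIMP3.

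CANNTG, which reads the same pattern on both strands, was common in promoters. It occurred in 65.1% of the 22198 promoter windows of protein-coding genes (300 bases each) and in 31 of the 50 windows of the 32 genes. Of the forms contained in it, CAGATG or CATCTG (each the reverse complement of the other) occurred in 12.2% of the protein-coding windows and in 8 of the 50, and CAGCTG occurred in 18.0% and in 7 of the 50. Of the 2454 protein-coding windows that a peak overlapped, 56.2% held CANNTG, against 66.2% of the other 19744. CAGATG or CATCTG occurred in 8.23% against 12.7%, and CAGCTG in 18.7% against 17.9%, so the difference was not the same for each form. The median GC content was 68.0% in the overlapped windows and 61.3% in the others. A match in a window is a description of its letters and does not mark a bound site. The paper reports NeuroD1 motifs enriched over its binding sites as a whole, of which the promoter windows hold only a part.

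Fold enrichment is the ratio of scaled ChIP reads at the summit to the background expected there, after 1 is added to both. The reads at each summit were solved from the values of the caller, and are given with exact Poisson intervals. The 14 peaks at the 12 genes had a median fold enrichment of 8.82 (range 5.42 to 26.5), against 6.79 over all 6183 peaks. The 95% interval of the median of the 14, 5.95 to 18.2, included 6.79, so no shift is read from it. Of the 14 peaks, 10 exceeded the median of all peaks, 8 were at or above their upper quartile of 8.68, and 3 exceeded their 95th percentile of 13.8. The summits were covered by 12 to 54 ChIP reads, with a median of 20, over an implied background of 1.04 to 2. An implied background above 10 was found at 112 peaks of the list, none of them among the 14.

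The highest values in the machinery were found at synaptotagmins. SYT7, a high-affinity synaptotagmin of slow and dense-core vesicle release, had a peak at chr11:61581274-61581735 with a fold enrichment of 26.5 (95% interval 20.03 to 34.4), a −log10 q of 63.6 and 54 reads (40.6 to 70.5). It ranked 36 of 6183 peaks by fold enrichment, lay inside the gene 6.87 kb from its high-coordinate end, and also lay in LOC105369331. SYT5, found on dense-core vesicles as well as synaptic vesicles, had a peak at chr19:55178776-55179130 with a fold enrichment of 24.6 (18.4 to 32.2), a −log10 q of 58.6 and 50 reads (37.1 to 65.9). These intervals overlapped, so SYT7 and SYT5 were not distinguishable by counting error, and both lay above the intervals of the peaks at the other synaptotagmins. The second SYN3 peak (18.2-fold, 12.9 to 24.9) had an interval that overlapped both, so counting error does not separate it from them. RefSeq lists 2 starts for SYT5, and the summit lay 428 bp downstream of the inner start and 1.37 kb downstream of the outer start. The SYT5 peak also lay within 3 kb of PTPRH, a receptor tyrosine phosphatase.

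SYT1, the main calcium sensor of fast synchronous release, had weaker peaks deep inside its 588 kb gene. The first, at chr12:78938723-78939104, had a fold enrichment of 8.53 (5.31 to 13.1) and 19 reads (11.4 to 29.7), and its summit lay 74.2 kb downstream of the start. The second, at chr12:78951829-78952014, had a fold enrichment of 5.42 (3.18 to 8.71) and 15 reads (8.395 to 24.7), 87.2 kb downstream of the start. The summits were 12.998 kb apart, their intervals overlapped, and both peaks also lay in the uncharacterised LOC105369863. SYT11, a synaptotagmin not known as a calcium sensor, had a peak at chr1:155860256-155860641 with a fold enrichment of 5.95 (3.44 to 9.71) and 14 reads (7.65 to 23.5). Its summit lay 961 bp downstream of the SYT11 start and 1097 bp upstream of the start of GON4L, which is transcribed the other way. No peak was called at SYT2, the SYT1 relative of fast motor and hindbrain synapses, or at SYT3 and SYT4.

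Among the fusion proteins, STX1A, the plasma membrane syntaxin, had the highest value, but its interval overlapped those of VAMP1, VAMP2, CPLX1 and CPLX2. Its peak at chr7:73705323-73705572 had a fold enrichment of 12.05 (7.90 to 17.7), a −log10 q of 19.3 and 24 reads (15.4 to 35.7), and lay 14.2 kb downstream of the start of a 20.5 kb gene. The lncRNA LOC105375350 lay within 3 kb of this peak. The vesicle SNAREs differed in where their peaks lay. At VAMP1, the peak at chr12:6470664-6470893 had a fold enrichment of 8.96 (5.64 to 13.6) and 20 reads (12.2 to 30.9) and covered the start of the gene, which lies within the RefSeq body of TAPBPL, a peptide-loading factor of antigen presentation. At VAMP2, the main vesicle SNARE of brain synapses, the peak at chr17:8156402-8156625 had a fold enrichment of 6.21 (3.82 to 9.63) and 18 reads (10.7 to 28.4) over a background of 2, and lay 2522 bp beyond the end of the gene. The intervals of VAMP1 and VAMP2 overlapped.

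Both complexins among the 38 genes, which clamp and then promote SNARE-driven fusion, were counted, on different grounds. No peak was called at CPLX3 or CPLX4, the complexins outside the 38 genes. CPLX2 had a peak inside the gene at chr5:175837231-175837497, 40.8 kb downstream of the start, with a fold enrichment of 9.50 (5.98 to 14.4) and 20 reads (12.2 to 30.9). CPLX1 was counted for a peak at chr4:781812-782140 with a fold enrichment of 7.52 (4.84 to 11.2) and 22 reads (13.8 to 33.3), which lay 2817 bp outside the gene. The summit of this peak was 87 bp upstream of the start of PCGF3-AS1, an antisense transcript, and 88 bp upstream of that of LOC124900163. No peak was called at SNAP25, the second plasma membrane SNARE, at STXBP5 (tomosyn), an inhibitor of SNARE assembly, or at NSF, the ATPase that takes SNARE complexes apart.

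On the vesicle itself, RAB3A, the main RAB3 GTPase of synaptic vesicles, had a peak just upstream of the gene at chr19:18204132-18204455. Its fold enrichment was 11.3 (7.35 to 16.7), with a −log10 q of 17.6 and 23 reads (14.6 to 34.5), and its near edge lay 90 bp from the start. The summit was also 419 bp upstream of the start of LOC102725254. SYN3, the synapsin of early neuronal development, spans 551 kb and had peaks that lay 79.4 kb apart. The stronger one, at chr22:32880977-32881517, had a fold enrichment of 18.2 (12.9 to 24.9), a −log10 q of 37.7 and 37 reads (26.1 to 51.0), and no other gene lay within 3 kb. It was also the widest of the 14 peaks at 541 bp.

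The weaker SYN3 peak, at chr22:32801608-32801758, had a fold enrichment of 5.51 (3.06 to 9.31) and 12 reads (6.20 to 21.0), and the interval did not overlap that of the stronger one. Its summit lay 54 bp upstream of the start of TIMP3, a metalloproteinase inhibitor whose gene lies inside SYN3. SYNGR1, a vesicle membrane protein, had a peak at chr22:39356584-39356754 with a fold enrichment of 8.68 (5.26 to 13.6) and 17 reads (9.90 to 27.2). Its summit lay 6677 bp downstream of the outer SYNGR1 start and upstream of a further, inner start that RefSeq lists. No peak was called at SYN1 or SYN2, the synapsins that tether vesicles in reserve, or at SYP (synaptophysin), SV2A, SV2B, SV2C, SYNGR3, RAB3B and RAB3C. SYN1 and SYP lie on chromosome X, where the list held 27 peaks and 2.71% of 848 protein-coding genes had one. On chromosome 12, which holds SYT1 and VAMP1, the share of protein-coding genes with a peak was 33.6%. On chromosome 17, which holds VAMP2 with a peak and NSF without, it was 33.3%, against 21.4% of all protein-coding genes.

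The active zone and the recycling genes formed the groups without a peak. RIMS1 and RIMS2, which link vesicles to calcium channels, the scaffolds BSN, PCLO and ERC2, and the priming factors UNC13A and UNC13B had none, although these genes are long, from 87.0 to 960 kb. For ERC2, 52.0% of genes of like length had a peak, and for RIMS2 50.5%. DNM1 (dynamin 1), AMPH, SYNJ1 and SNAP91, a clathrin adaptor of synaptic vesicles, had no peak either. The lowest number of ChIP reads at a called peak was 8, so a gene without a peak had no binding detectable at this depth, which does not show that NeuroD1 was absent.

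In the genome the share of genes with a peak rose with gene length, whereas in the machinery most genes with a peak were short. Of all protein-coding genes, 15.3% of those up to 20 kb had a peak, and the share was 22.5% from 20 to 50 kb, 24.7% from 50 to 100 kb, 29.8% from 100 to 200 kb, 35.3% from 200 to 500 kb and 48.9% above 500 kb. In the same bands, the machinery had 4 of 8, 4 of 6, 2 of 7, 0 of 6, 0 of 5 and 2 of 6 genes with a peak. Joined at 50 kb, a limit chosen after the values were seen, 8 of 14 shorter genes and 4 of 24 longer genes had a peak, against 17.8% and 29.3% of all protein-coding genes. The 12 genes had a median length of 30.6 kb and the other 26 a median of 138 kb. Over gene bodies with 3 kb on each side, the machinery held 1.93 peaks per Mb, against 3.94 per Mb over all protein-coding genes. The latter value counts a peak once for each gene that shares it. It was also not matched in gene length, so no depletion is read from these densities. The numbers of genes per band are small, and the difference was not tested.

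**Figure D2:**
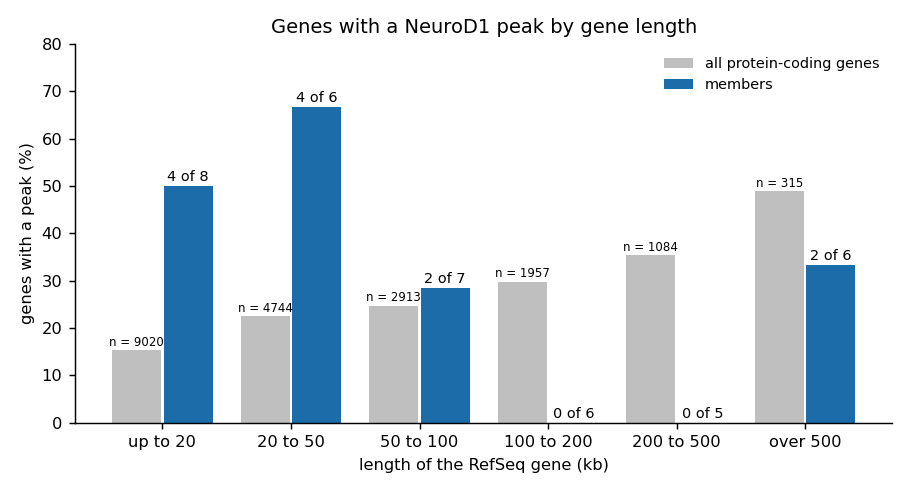
Share of genes with a NeuroD1 peak by RefSeq gene length in kb, for all protein-coding genes (grey, with their number) and for the 38 machinery genes (blue, with counts). The grey bars rise from 15.3% to 48.9%, while 8 of the 12 machinery genes with a peak fall in the bands up to 50 kb.

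The 3 kb limit decided few genes. The genes just inside it were VAMP2 at 2522 bp and CPLX1 at 2817 bp, and those just outside were SYNGR3, whose nearest peak lay 6181 bp away (9.64-fold, 19 reads), and SYN2, at 9056 bp (6.79-fold, 15 reads). For the 26 genes without a peak, the nearest one lay from 6.18 kb to 5301 kb away, with a median of 180 kb, against a median of 168 kb for all protein-coding genes without a peak. Within 50 kb of the gene, 8 of the 26 had a peak, among them SYNJ1 (16.1 kb), SNAP25 (22.0 kb), RAB3B (28.7 kb), UNC13A (45.6 kb) and BSN (46.5 kb). For 16 of the 26, no peak lay within 100 kb.

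**Figure D3:**
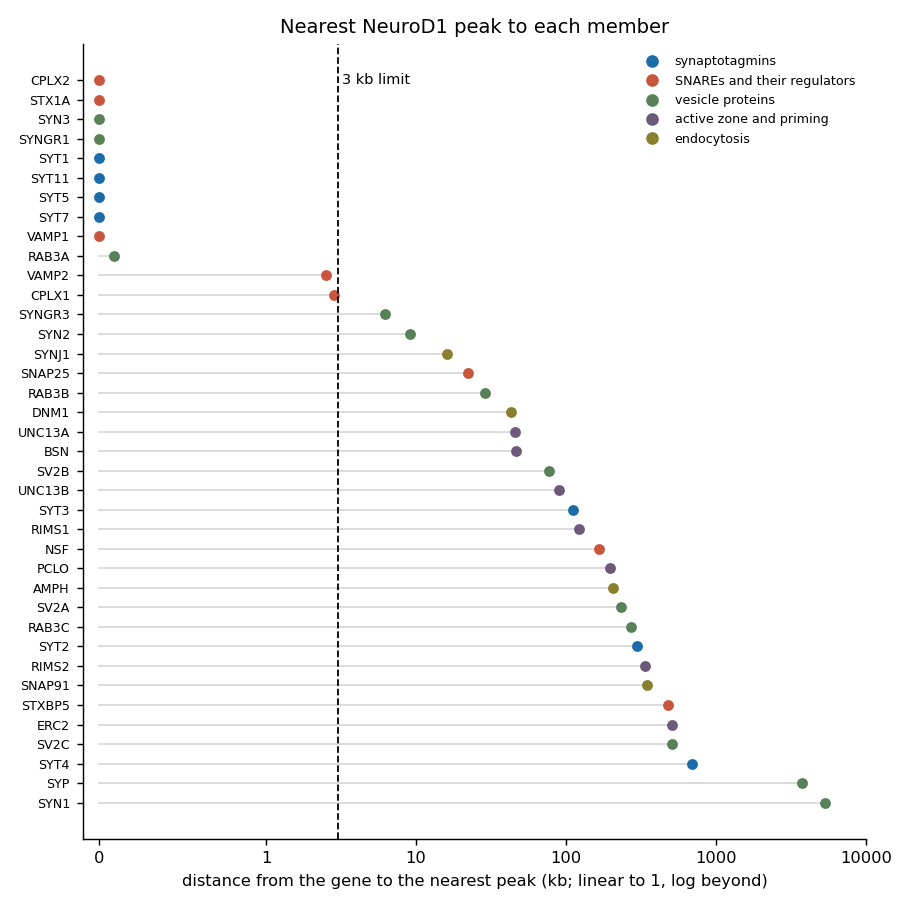
Distance in kb (linear to 1, log beyond) from each of the 38 genes to its nearest NeuroD1 peak, coloured by role, with 0 for a peak that overlaps the gene and a dashed line at 3 kb. Of the genes, 9 sit at 0, RAB3A, VAMP2 and CPLX1 lie within the line, and SYP and SYN1 on chromosome X lie farthest out.

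A wider list of 74 vesicle and release genes outside the 38 was counted in the same way. A peak was found at 30 of them (40.5%), against 26.4% of protein-coding genes of like length, and at the start for 10 of the 60 with a listed start (16.7%), near the 15.6% of protein-coding genes with a start. The highest fold enrichments were 14.7 at UNC13D, the priming factor of cytotoxic granules, with 59 reads (44.9 to 76.1), and 11.1 at SLC17A6, a vesicular glutamate transporter, with 22 reads (13.8 to 33.3). They were followed by SNAP29, a SNARE of endosomes and autophagosomes (9.64), PPFIA4, a liprin scaffold (9.57), and SLC32A1, the vesicular GABA transporter (9.48). The list was drawn up by hand, with earlier results of these data known, and no test was run on it.

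In the families of the active zone and endocytosis groups, which had no peak, relatives in the wider list had some, a comparison chosen after the values were seen. For the active zone, 4 of 5 relatives, 17.2 to 796 kb long, had a peak, against 34.1% of protein-coding genes of like length: besides UNC13D, the fold enrichment was 8.48 at UNC13C with 20 reads, 6.27 at RIMS3 with 12 reads and 5.89 at ERC1 with 17 reads, and RIMS4 had none. For endocytosis, 4 of 5, from 59.1 to 577 kb long, had a peak, against a like-length share of 32.4%. With 5 genes a group chosen for this, nothing is read from these counts. DNM2, the ubiquitous dynamin, had 7.52 with 22 reads, DNM3 had 3 peaks with a highest value of 7.25, SYNJ2 had 7.18 with 17 reads, and PICALM, the broadly expressed relative of SNAP91, had 8.20 with 16 reads. BIN1, the relative of AMPH, had none, and the peaks of DNM2 and PICALM included one at a start. Relatives of the other genes without a peak were mixed. SNAP29, SNAP47, SYNGR2, SYNGR4, SVOP, SYT14, SYT16 and SYT17 had a peak. SNAP23, STXBP6, SYT6, SYT9, SYT10, SYT12, SYT13, SYT15, RAB3D, SYNPR and SYPL1 had none. These relatives were named after their values were seen, and nothing is read from them. In the whole wider list, 30 of 74 genes had a peak, against a like-length share of 26.4%. No expression was measured in the list.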

How the data were processed

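The NeuroD1 peaks of 1 IMR-32 library, called without pooling, were analysed. The submitters' processing notes name BWA 0.7.17, MACS2 2.2.7 and hg38, while the peak names carry macs3. The control and the threshold are not given in the sources used here. The authors deposited the fold enrichment (a ratio of pileup to local background after adding 1 to both), the −log10 of p and q, and a score derived from −log10 q. A further deposited column, fold enrichment over peak width, was not used. ChIP reads and background were solved from fold enrichment and −log10 p with the Poisson formula of MACS. A weight of 0.980 for each read and a genome-wide background of 1.04 came from the list itself, and 6182 of 6183 peaks gave whole reads within 0.02. The other had no solution and was left without reads. Tested on 999 simulated peaks, the solver recovered 100% of the reads. The simulated peaks were made with the same formula, so this checks the solving step and not whether the formula fits the list. They did not cover the lowest and highest read counts of the list.

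Genes, lengths and promoters were taken from RefSeq of GRCh38.p14. The genes and lists were chosen with earlier results of these data known. The text names each of the 38 genes, the further genes with the 5 highest values, genes that share a peak and genes with a peak up to 10 kb away. Relatives of genes without a peak were added after their values were seen. Results for some cell type marker genes are not reported here. Alternatives changed the distance, the peak threshold, the overlap, the background genes and the motif. Software was Python 3.11.15 with scipy 1.17.1, pandas 2.3.3, numpy 2.4.6 and matplotlib 3.10.9.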

Additional observations from a re-analysis of the deposited data

How the results depend on the processing

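No result has a replicate check, and the 12 to 54 reads at each summit limit the ranking. No paired analysis was possible because a single ChIP library was deposited. Under 11 alternatives, 9 to 14 of the 38 genes had a peak. It was 12 when −log10 q or fold enrichment had to reach 5, without peaks of raised background, and when the chromosome X genes were left out, which was added after seeing the data. It was 9 with gene bodies only (without VAMP2, RAB3A and CPLX1) and 9 with each peak given to the nearest gene body (without SYT1, SYT7 and CPLX1). It was 14 with 10 kb, adding SYN2 and SYNGR3, and 9 without peaks near the start of another gene, also added after seeing the data.

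The share of all protein-coding genes with a peak (21.4%) and of genes of like length (29.4%) moved beyond counting error under several of them, as follows from their construction. At a −log10 q of 5 or more they were 17.2% and 24.25%, at a fold enrichment of 5 or more 19.7% and 27.5%, with gene bodies only 16.0% and 24.5%, with 10 kb 25.1% and 32.1%, and with the nearest gene body 16.1% and 23.7%. With 1 kb the share of all genes was 20.1%. The like-length share was 24.0% with genes of all RefSeq types and 28.2% with 20 genes of the same chromosome, added after seeing the data. The share of protein-coding genes with a peak at the start (15.6%) was 16.6% within 3 kb, 14.04% within 0.25 kb, 12.2% at a −log10 q of 5 or more and 14.1% at a fold enrichment of 5 or more, and the count of the 32 genes stayed at 3 or 4. Of the 50 promoter windows of the genes, 62.0% held CANNTG, 16.0% CAGATG or CATCTG and 14% CAGCTG, since the narrower motifs are part of the wider one. The other 32 of 51 alternatives, among them those for the median fold enrichment and the wider list, stayed within 1.5 times or within counting error.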

Other observations

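Some genes that mark adrenergic neuroblastoma cells were checked for peaks as well, since the list holds binding and no expression. TBX2 had 3 peaks in the gene or within 3 kb, with a highest fold enrichment of 5.44 and 17 reads (9.90 to 27.2). DBH, the enzyme that makes noradrenaline, had a peak with a fold enrichment of 5.27 and 10 reads (4.795 to 18.4), and PHOX2A had one of 4.17 with 16 reads (9.15 to 26.0). These values lay below the median of 6.79 over all peaks. No peak was called at HAND2, GATA3, ISL1, MEIS2, TH, CHGA or CHGB.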
